A study of Rattus norvegicus with 21 samples.

Results

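The regions described here are the KLF2 CUT&Tag peaks that lie on sequences outside the assembled rat chromosomes. They were chosen by sequence name alone, as every peak of the deposited list whose name was not 1 to 20, X, Y or MT (the mitochondrial genome). This gave 417 of the 3065 peaks, on 64 contigs, and the other 2648 peaks lay on 23 assembled sequences. The share on contigs was 13.6% (exact binomial 95% interval 12.4 to 14.9, which covers the counting of peaks only). By covered bases it was 15.3%, with 245014 bp of peaks on contigs and 1361291 bp on the assembled sequences. On mRatBN7.2, the rat build named in the submitters' processing notes, 44 of these 64 names began with JACYVU and 20 with MU.

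KLF2 is a Krüppel-like zinc finger transcription factor that binds GC-rich and CACCC elements in DNA, and it is best known as a flow-responsive regulator in endothelial cells. CUT&Tag maps such binding with an antibody that brings a transposase to the protein, so that DNA near the bound site is cut and tagged for sequencing. Unplaced contigs are assembled pieces of a genome that could not be set in order on a chromosome. Such pieces are often rich in repeated or duplicated sequence, where a short read can match several places.

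The peaks came from 1 CUT&Tag library of NRVMs overexpressing KLF2. NRVMs are neonatal rat ventricular myocytes, heart muscle cells taken from newborn rats and grown in culture. The labels give neither the antibody nor whether this library received phenylephrine, and the extraction text attached to it describes RNA libraries. The series also holds 20 RNA sequencing libraries of the same cell type, which were not used here because their gene IDs carry no position. For those made with adenovirus, cells spent 12 h with or without phenylephrine. They were then infected for 24 h with a virus carrying GFP or Klf2. No such times are listed for the CUT&Tag library itself. With 1 library and no control CUT&Tag library analysed here, contig and chromosome peaks were compared as a description of this library, with no test of a condition. No gene or sequence is given for a peak, because no genome of this build was used here.

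The contig peaks were unevenly spread. The number per contig ranged from 1 to 38, with a median of 4 and a mean of 6.52. A single peak was found on 12 contigs, and 30 contigs held 5 or more. The 10 fullest contigs held 216 peaks, or 51.8% of those on contigs, and the fullest alone held 9.11%. Both kinds of name were found among the fullest contigs, as the bars of peaks by contig show. Contigs with more peaks tended to reach further, with a Spearman correlation of 0.51 between the number of peaks and the last covered base across 64 contigs, points that share 1 library and that gain reach with every added peak.

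**Figure D1:**
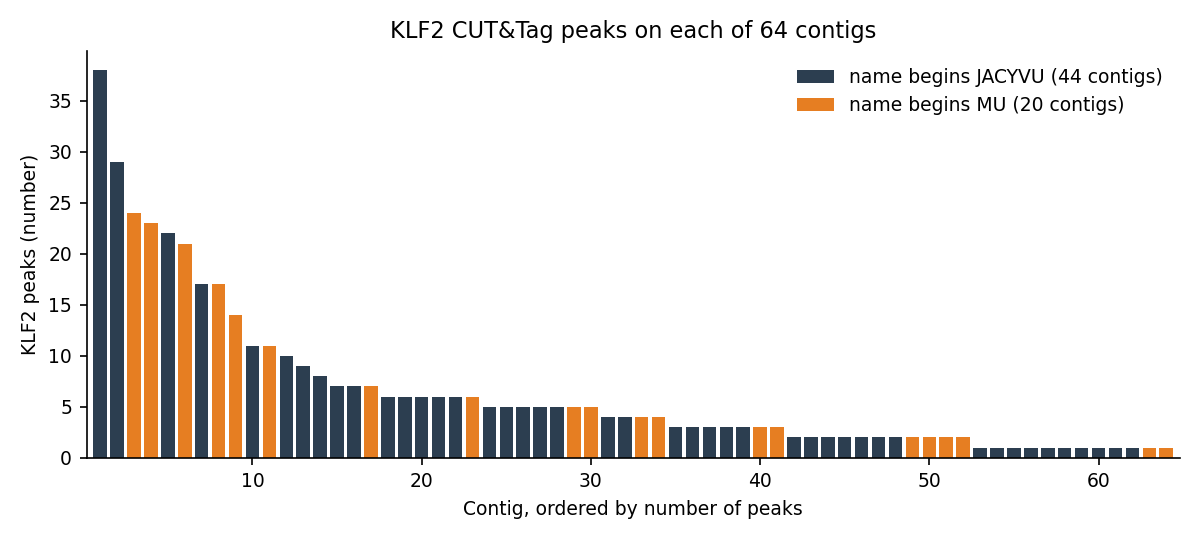
The number of KLF2 peaks (vertical axis) on each of the 64 contigs, ordered from the fullest to the emptiest, with 1 bar per contig coloured by the kind of name. The 10 fullest contigs, with 11 to 38 peaks each, hold 216 of the 417 peaks.

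Crowding was far denser on contigs than on chromosomes as a whole. The last peaks of the 64 contigs ended at a summed length of 8.05 Mb, which gives 51.8 peaks per Mb, against 1.01 per Mb over 2628 Mb of assembled sequence counted the same way. The contig figure is an upper limit, since sequence beyond the last peak and contigs without a peak were not counted. The distance from a summit to the nearest other summit had a median of 3034 bp on contigs (quartiles 1458 and 7022) and of 66726 bp on chromosomes (quartiles 6309 and 318202). These medians leave out peaks alone on their sequence, 12 on contigs and 1 on chromosomes. A distance cannot exceed the length of its sequence, and the last peak of a contig ended at a median of 37.9 kb. Short contigs thus leave little room for long distances, which also bears on the shares that follow. Another summit within 10000 bp, called a close neighbour below, was present for 346 of 417 contig peaks (83.0%) and for 779 of 2648 chromosome peaks (29.4%), while 36.7% of all peaks in the list had one. At 1000 bp the shares were 10.8% and 5.10%.

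Long rows of peaks were found on both kinds of sequence. A run of 5 or more peaks, each within 10000 bp of the next, occurred 26 times on 20 contigs and took in 205 contig peaks (49.2%). On chromosomes there were 48 such runs on 17 chromosomes, with 380 peaks (14.4%), beside 19.1% of all peaks. The longest contig run held 21 peaks over bases 30200 to 110809 of MU150221.1. The longest chromosome run held 22 peaks on chromosome 1, at bases 55004540 to 55074770. In a sliding 100 kb window, the highest count was 23 on JACYVU010000707.1 and 23 on chromosome 1, and in 300 kb it was 38 on that contig and 41 on chromosome 16. By these counts the densest stretches of assembled chromosomes held as many peaks as the densest contigs. The 300 kb count of JACYVU010000707.1 took in all its peaks, which spanned 261 kb, so contigs may not fill a window.

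The fullest contigs differed in how their peaks were laid out. JACYVU010000707.1 held 38 peaks between bases 5544 and 266494, or 14.6 per 100 kb, of which 36 had a close neighbour. JACYVU010000705.1 held 29 peaks over a similar span of 286.4 kb, or 10.1 per 100 kb. MU150192.1 held 24 peaks in 271.9 kb and MU150221.1 held 23 in 107.3 kb, or 21.4 per 100 kb. The span of JACYVU010000738.1 was shorter, with 22 peaks in 86.6 kb, or 25.4 per 100 kb, and peaks covered 19.8% of it. MU150191.1 was the exception among the fullest, with 21 peaks over 1619 kb, or 1.30 per 100 kb, yet 19 of the 21 had a close neighbour. On JACYVU010000706.1 all 17 peaks had one, and 15 of them formed a single run between bases 73451 and 110998. The other 3 of the 10 fullest, MU150219.1, MU150216.1 and JACYVU010000740.1, held 17, 14 and 11 peaks.

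Width separated the contig peaks little from the others at the centre of the distribution and more in the upper tail. The median width was 448 bp on contigs (quartiles 297 and 695) and 428.5 bp on chromosomes (quartiles 310 and 594). The 95% interval of the contig median, taken from the order of the values, was 423 to 488 bp, so it took in the chromosome median. Both kinds began at 226 bp, the shortest peak in the list. At least 1000 bp was reached by 51 contig peaks (12.2%) and 159 chromosome peaks (6.0%), and by 6.85% of all peaks. Among peaks with a close neighbour the shares were 10.7% on contigs and 11.3% on chromosomes. Among peaks without one they were 19.7% (14 of 71) and 3.8% (71 of 1869).

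The widest contig peaks did not share one level of enrichment. The widest covered 3208 bp of MU150193.1 (bases 343858 to 347065) at 3.11-fold enrichment. A peak of 3093 bp was the only one on JACYVU010000727.1 (bases 106221 to 109313), at 7.14-fold. Next came 2619 bp on JACYVU010000705.1 (bases 208020 to 210638) at 2.29-fold and 2500 bp on JACYVU010000614.1 (bases 13207 to 15706) at 3.38-fold. The fifth, 2391 bp on JACYVU010000706.1 (bases 285091 to 287481), had 8.17-fold enrichment. At the other end, 4 contig peaks had the minimum width of 226 bp, on JACYVU010000740.1 (6.91-fold), MU150222.1 (3.52-fold), JACYVU010000707.1 (3.19-fold) and MU150191.1 (3.18-fold). A peak of 228 bp on JACYVU010000707.1 had 4.44-fold enrichment.

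Over all peaks, fold enrichment was lower on contigs at the median, while the statistical strength of the peaks was higher. The authors' fold enrichment, the pileup at a summit over the pileup expected there, had a median of 4.09 on contigs (quartiles 3.19 and 5.59) and 4.55 on chromosomes (quartiles 3.73 and 5.59). The interval of the contig median was 3.90 to 4.31, below the chromosome median. With 1 median taken per contig, so that full contigs did not count more, the difference in median fold shrank from -0.46 to -0.13. Among peaks with a close neighbour the median was higher on contigs, 3.91 against 3.61. In runs of 5 or more it was 3.57 against 3.16, and without a close neighbour it was 4.76 on both. The authors' −log10 p had a median of 18.3 on contigs and 11.7 on chromosomes, and −log10 q of at least 10 was reached by 262 contig peaks (62.8%) and 1004 chromosome peaks (37.9%), beside 41.3% of all peaks. Among peaks of at least that q the contig share of the list rose to 20.7%. Under 2-fold there were 19 contig peaks (4.56%) and 36 chromosome peaks (1.36%), beside 1.79% of all. All 19 lay in runs of 5 or more peaks, where the shares were 9.27% on contigs (19 of 205) and 8.16% on chromosomes (31 of 380). At least 5-fold was reached by 131 contig peaks (31.4%) and 942 chromosome peaks (35.6%), with 35% for the list. With a close neighbour these shares were 28.6% on contigs and 19.9% on chromosomes, and without one 45.1% and 42.1%. At least 10-fold was reached by 17 contig peaks (4.08%) and 76 chromosome peaks (2.87%), with 3.03% for the list.

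**Figure D2:**
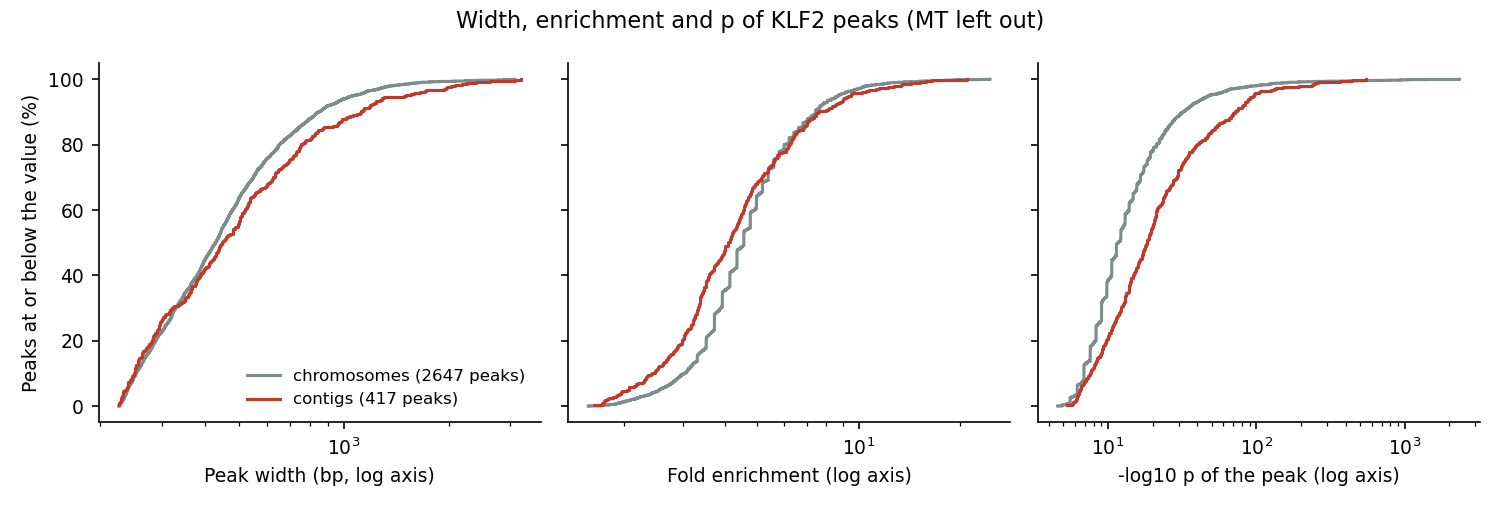
Cumulative share of peaks (vertical axis, percent) at or below each width in bp, fold enrichment and −log10 p (horizontal log axes), for 417 contig peaks and 2647 chromosome peaks without MT. The contig curve lies to the left of the chromosome curve at low folds, with medians of 4.09 and 4.55, and to the right for −log10 p, with medians of 18.3 and 11.7.

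A lower fold beside a stronger p was resolved by recovering the counts behind them. Peak callers of the MACS family, whose file layout the list follows, take fold as (pileup + 1) / (expected pileup + 1) and p from a Poisson tail. The caller is not given in the sources used here, but a whole-number pileup with these relations was found for all 3065 lines, within 0.001 on the −log10 p scale or 1e-05 of its value. Pileup is the number of reads or fragments over the summit, and expected pileup is the background the caller set it against. The lowest expected pileup was 3.83, shared by 1538 peaks within a tolerance of 0.01, and no peak lay below it by more than that. Within 0.001 the number was 1533, with the same 30 contig peaks in both counts. What the higher values were computed from is not given in the sources used here, so reads of the peaks themselves may be part of them.

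On contigs both quantities were higher. The pileup at the summit had a median of 56 on contigs (quartiles 35 and 107) and 26 on chromosomes (quartiles 20 and 42). The expected pileup had a median of 12.3 on contigs (quartiles 7.73 and 23.1), whereas the chromosome median was the lowest value itself, 3.83 (upper quartile 6.90). An expected pileup above the lowest value by at least 0.01 was found for 387 contig peaks (92.8%) and 1140 chromosome peaks (43.1%), beside 49.8% of the list. Of the 64 contigs, 40 had no peak at the lowest value, and 8 had all their peaks there, with at most 2 peaks each. Read within classes of pileup, the shares differed for weak peaks and reached or neared 100% on both kinds of sequence for strong ones. With a pileup of at most 20, 7 of 20 contig peaks (35%) and 76 of 683 chromosome peaks (11.1%) had a raised expected pileup. Among peaks with a pileup of 21 to 30, 38 of 49 contig peaks (77.6%) and 231 of 922 chromosome peaks (25.1%) had a raised expected pileup. With 31 to 50 it was 104 of 109 (95.4%) and 305 of 503 (60.6%). With 51 to 100 it was 122 of 123 and 283 of 295, with median expected pileups of 14.9 and 16.2. With 101 or more it was all 116 and all 245. The median expected pileup there was lower on contigs, 33.8 against 47.8, and the median fold higher, 4.68 against 3.56.

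**Figure D3:**
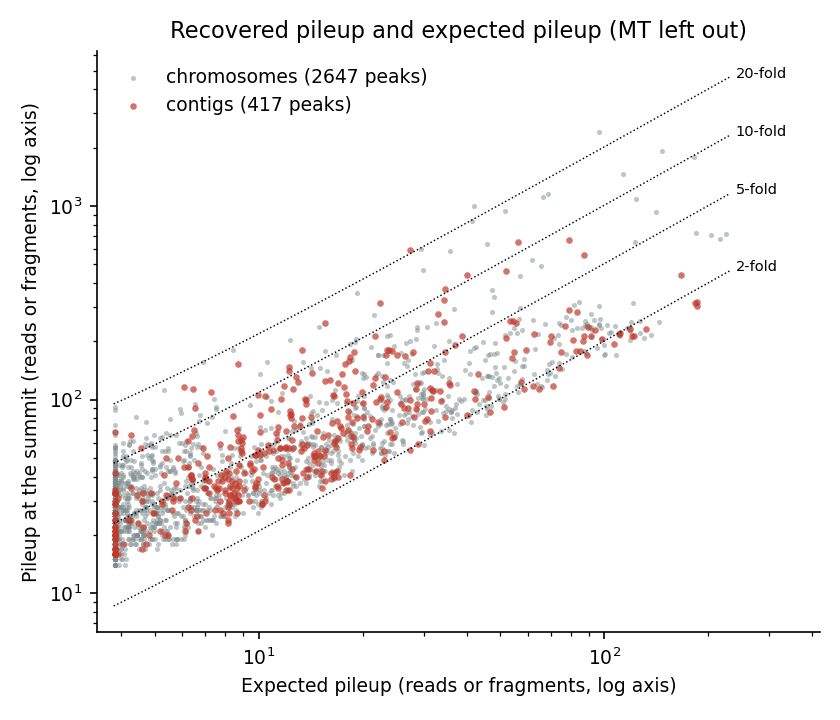
Pileup at the summit (vertical log axis) against expected pileup (horizontal log axis), both in reads or fragments, 1 point per peak, with dotted lines at 2-, 5-, 10- and 20-fold enrichment and MT left out. Grey chromosome peaks stack at the lowest expected pileup of 3.83, and 387 of the 417 red contig peaks lie to the right of it.

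Crowding and expected pileup moved together on both kinds of sequence. What the expected pileup was computed from is not given. Reads of a close neighbour may be part of it, so the measures may not be independent. Among peaks with a close neighbour, the median expected pileup was 14.4 on contigs (346 peaks, quartiles 8.63 and 25.9) and 14.9 on chromosomes (779 peaks, quartiles 6.71 and 30.1). Their median pileups were 62.5 and 57, and their median folds 3.91 and 3.61. In runs of 5 or more, the expected pileup was lower on contigs (median 19.8, 205 peaks) than on chromosomes (median 26.3, 380 peaks), and the median folds were 3.57 and 3.16. Among peaks with no close neighbour, 49 of 71 contig peaks (69.0%) and 427 of 1869 chromosome peaks (22.8%) had a raised expected pileup, with medians of 6.43 and 3.83 and the same median fold of 4.76. The contig and chromosome medians of expected pileup thus differed by -0.54 among crowded peaks and by 2.60 among isolated ones, against 8.45 over all peaks. Whether crowding plays a part in the higher expected pileup of contigs was not tested, and the repeat content of the contigs was not analysed here.

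**Figure D4:**
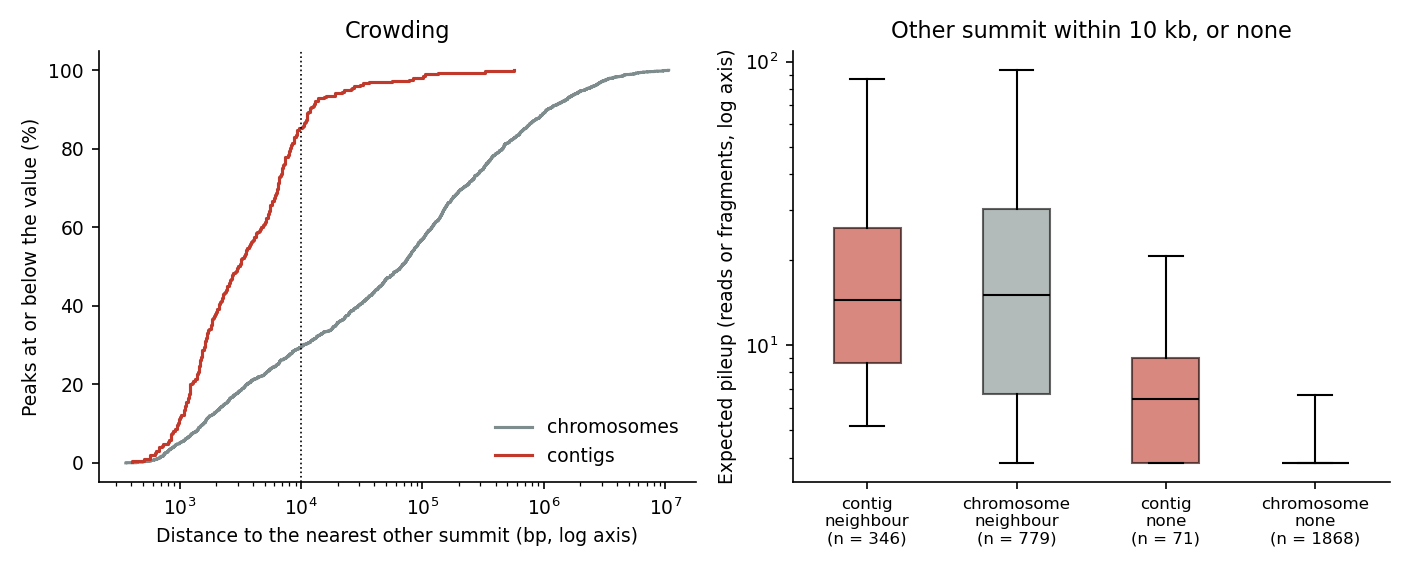
Left, cumulative share of peaks (percent) by distance to the nearest other summit on the same sequence (bp, log axis), with a dotted line at 10000 bp. Peaks alone on their sequence are left out there. Right, expected pileup (log axis) of contig and chromosome peaks with and without another summit within 10 kb, as boxes of quartiles with the median and whiskers at the 5th and 95th percentiles, MT left out. The boxes with a neighbour have medians of 14.4 and 14.9, and those without one 6.43 and 3.83.

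Expected pileup differed between contigs far more than width did. Over the 30 contigs with 5 or more peaks (346 peaks), differences between contigs took 46.1% of the variance of log2 expected pileup, 36.1% of log2 pileup, 22.2% of log2 fold and 0.468% of log2 width, each adjusted for the number of contigs. Close peaks of a contig may share part of their expected pileup, whose source is not given, while width was measured for each peak. Whether this plays a part in the difference was not tested. The contig medians of expected pileup ran from 5.16 on JACYVU010000631.1 to 74.1 on JACYVU010000614.1. Across all 64 contigs the number of peaks had a Spearman correlation of 0.57 with the median expected pileup and of -0.40 with the median fold, as a description of contigs that share 1 library and its depth. Taken over peaks, so that full contigs counted more, the median expected pileup was 15.2 for JACYVU names (260 peaks) and 8.75 for MU names (157 peaks). The median folds, also over peaks, were 3.95 and 4.35.

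Along single contigs the expected pileup rose and fell from peak to peak. On JACYVU010000738.1 the first of 22 peaks had a pileup of 131 over an expected 12.8. The seventh had 37 over 9.78, the lowest expected value on that contig. The peak at bases 69559 to 70000 had 305 over 185.9, the highest expected pileup of any contig peak, and the last had 101 over 42.1. Fold was 9.57 at the first peak, 3.52 at the seventh and 1.64 at the highest background. This contig gave 4 of the 5 lowest folds on contigs, between 1.64 and 1.75, and the remaining one, 1.63, was at bases 76133 to 76413 of JACYVU010000706.1. All 17 peaks of that contig had an expected pileup of at least 24.0 (median 51.2) and their median fold was 2.08. MU150221.1 had the opposite balance, with a median fold of 6.15 over a median expected pileup of 17.0. On JACYVU010000707.1 the expected pileup ran from 7.82 to 59.3 (median 19.2) and on JACYVU010000705.1 from 4.81 to 86.7 (median 12.6). On MU150192.1, MU150191.1 and MU150216.1 the medians were 8.18, 8.14 and 8.10, and 2, 1 and 3 of their peaks were at the lowest value.

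**Figure D5:**
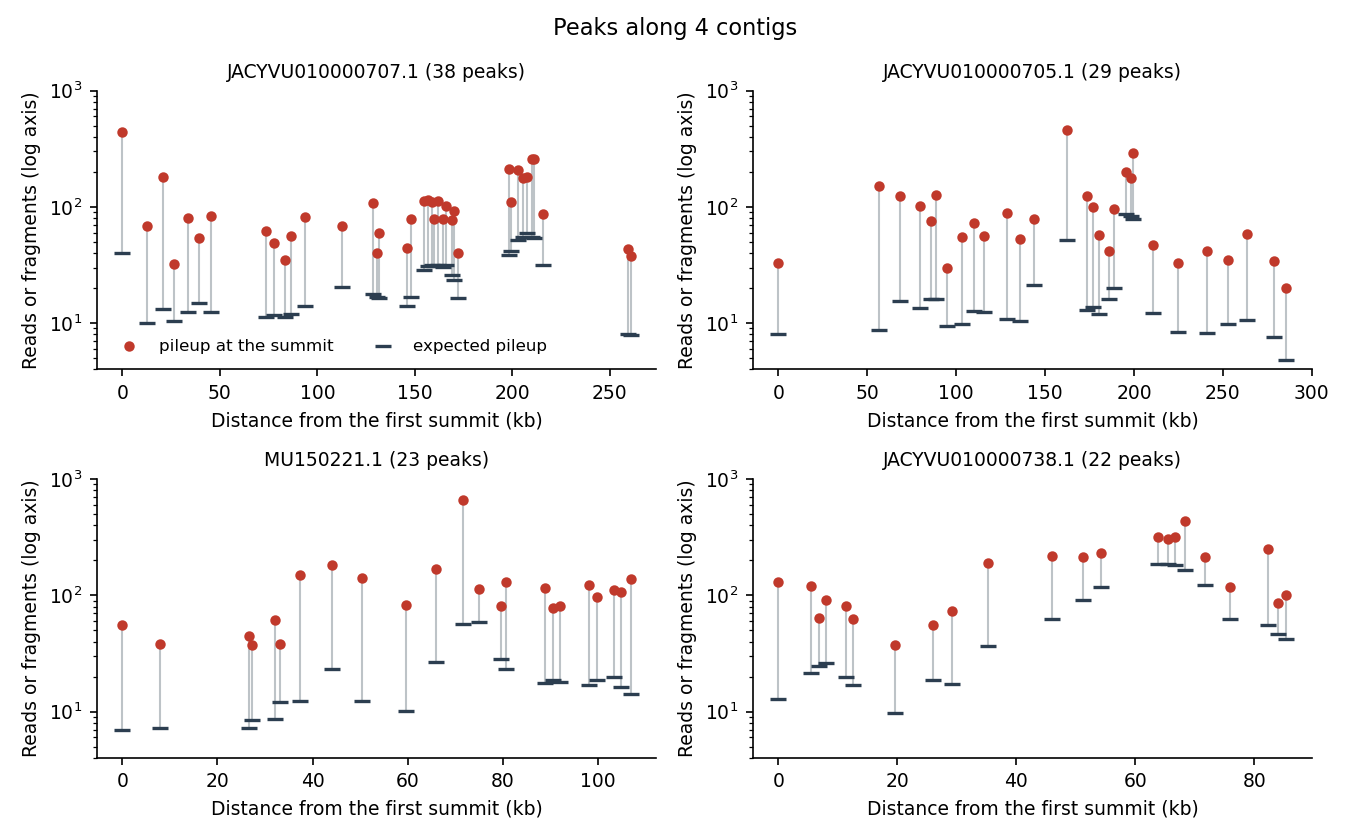
Pileup at each summit (points) and expected pileup (dashes), in reads or fragments on a log axis, against distance from the first summit of the contig in kb, for 4 of the 5 fullest contigs. The expected pileup on JACYVU010000738.1 climbs from 9.78 to 185.9 and falls again, and the gap between point and dash, which shows the fold, is narrow at its highest dashes (1.64-fold at 185.9).

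Peaks of at least 10-fold were found on contigs both inside and outside runs of 5 or more peaks, with 6 of 17 inside. In runs the share was 2.93% on contigs (6 of 205) and 1.05% on chromosomes (4 of 380), against 4.08% of all contig peaks. The highest fold on any contig was 20.96, at bases 619 to 1839 of JACYVU010000630.1, where it was the only peak, with a pileup of 594 over an expected 27.4. The second was also alone on its contig, at bases 223 to 1051 of JACYVU010000674.1, with 16.6-fold and 116 over 6.07. A peak at bases 69839 to 70220 of JACYVU010000705.1 had 15.8-fold (152 over 8.68), with its nearest summit 11858 bp away. JACYVU010000238.1 (bases 46849 to 47345) had 15.5-fold and JACYVU010000315.1 (bases 2703 to 3337) had 15.2-fold. MU150194.1 (bases 178149 to 178597) reached 14.3-fold over the lowest expected pileup, with a pileup of 68. The rest of the 10 highest were 13.4-fold on JACYVU010000652.1 and on JACYVU010000756.1, and 12.7-fold on JACYVU010000707.1 and on JACYVU010000740.1. Without a close neighbour, 8 of 71 contig peaks (11.3%) and 62 of 1869 chromosome peaks (3.32%) reached at least 10-fold. With one, 9 of 346 (2.60%) and 14 of 779 (1.8%) did. On chromosomes the 5 highest folds were 19.6 to 24.6.

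Peaks near the start of a sequence had a higher median fold on both kinds of sequence, and their expected pileup went in opposite directions. The first peak began within 500 bp of the first base on 11 contigs and within 1000 bp on 14. Within 2500 bp there were 32 peaks on 27 of the 64 contigs, with a median fold of 5.39 (quartiles 3.92 and 7.05) and a median width of 568.5 bp. The other 385 contig peaks had medians of 4.0-fold (quartiles 3.15 and 5.44) and 440 bp. The median expected pileup was lower near the first base of contigs, 9.50 against 12.4, as was the median pileup, 46.5 against 57. On chromosomes, with MT left out, 16 peaks on 13 of 22 sequences began as close to the first base. Their median fold was 6.43 with a wide spread (quartiles 3.43 and 13.9), against 4.55 for the others (quartiles 3.73 and 5.59). Their median width was 1038 bp against 427 bp, and their median expected pileup 40.5 against 3.83. Of the 5 highest folds on chromosomes, 3 were such peaks, on chromosomes 13 (bases 369 to 2023), 14 (bases 2025 to 3076) and 15 (bases 186 to 1751). On contigs the highest and second highest folds also began this close, at base 619 of JACYVU010000630.1 and base 223 of JACYVU010000674.1. At least 10-fold was reached by 3 of 32 contig peaks near the first base and 14 of 385 further in. On chromosomes it was reached by 5 of 16 and 71 of 2631. The far ends of contigs and chromosomes were not analysed here, since the list gives no sequence lengths.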

How the data were processed

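Peaks were called by the authors on 1 CUT&Tag library, and the list was used as deposited. Per the submitters' processing notes the build was mRatBN7.2, and the tools named there (Trim Galore, STAR and featureCounts) are not peak callers. The caller, any control library and the depth are not given in the sources used here. The deposited list gives start, end and summit in bp, a score (10 times the −log10 q in 3064 of 3065 lines, decimals dropped), fold enrichment as a ratio, and −log10 p and q values, all of them the authors' values. Starts are printed counted from base 1. No interval was listed more than once.

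Width was end minus start. Neighbours were measured between summits on one sequence. Pileup and expected pileup were recovered from fold and p, which returned the exact pileup for 100.0% of 500 simulated peaks. Those peaks were simulated with the same relations, so this checks the calculation and not whether the caller used them. None had an expected pileup as high as that of the MT peak. Intervals are exact binomial, or from order statistics for medians, at 95%, and treat peaks as separate although peaks of a contig share their surroundings. Named regions were the 10 fullest contigs, the 10 contig peaks of highest fold, the 5 widest, narrowest and lowest in fold, and the 5 chromosome peaks of highest fold. The members and rules were chosen with earlier results of these data known, and the recovery of pileups, the neighbour distances and the peaks near a first base were chosen after the data were seen. Python 3.11.15, numpy 2.4.6, pandas 2.3.3, scipy 1.17.1 and matplotlib 3.10.9 were used.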

Additional observations from a re-analysis of the deposited data

How the results depend on the processing

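No paired analysis was possible because the results come from 1 library and no test. The share on contigs was 15.2% and 20.7% at −log10 q of at least 5 and 10, and 12.3% with peaks at most 1000 bp apart merged. The difference in median width (contig minus chromosome, 19.5 bp) became -46 bp at −log10 q of at least 10, and 74, 63 and -42 bp within classes 2, 3 and 4 of fold (of 4 classes bounded by the quartiles of the list), so its direction depends on the peaks taken. The difference in median fold (-0.46) was -1.32 at −log10 q of at least 10, -0.20 with merging, -0.13 with 1 median per contig, and 0, -0.65 and -0.69 within classes 1, 3 and 4 of width. That in expected pileup (8.45) was 10.5 at −log10 q of at least 10, 4.89 with 1 median per contig and 2.60 without close neighbours, and turned to -0.54 with them and -6.43 in runs of 5 or more. The share of contig peaks with a close neighbour was 59.2% at 5000 bp, 91.6% at 20000 bp and 72.9% at −log10 q of at least 10. The cause of these shifts was not tested, and the alternatives for expected pileup and neighbours were chosen after seeing the data. Leaving out JACYVU010000707.1, the fullest contig, kept each of these values within its interval. Peaks per contig stayed within 1.5 times of 6.52 under all 5 alternatives. The direction of the fold difference also depended on the peaks taken. With a close neighbour the median fold was 3.91 on contigs and 3.61 on chromosomes, and without one it was 4.76 on both. Depth is unknown, and no replicate shows which contig peaks would recur.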

Other observations

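The mitochondrial genome carried 1 peak that spanned 16034 bp, with a recovered pileup of 14218 over an expected 8314 and a fold of 1.71. The first 100 kb of chromosome 10 held 17 peaks with a median expected pileup of 92.0, those of chromosome 7 held 8 with a median of 81.6, and those of chromosome 6 held 5 with a median of 96.7. On the 13 other chromosomes with a peak there, the medians ran from 3.83 to 45.5. By comparison, the 12 peaks between bases 48426 and 90220 of JACYVU010000738.1 had a median of 104.9. Chromosome Y had 7 peaks with a median expected pileup of 29.9 (chromosome 3, with 237 peaks, had 6.01, and chromosome 16, with 141, had 6.44), and 6 of the 7 were above the lowest value.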
